A study of Mus musculus with 24 samples.

Results

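*Id1* was silenced with a lentiviral hairpin in mouse epidermal progenitors held in low calcium, and their mRNA was set against that of cells with a scrambled hairpin. The comparison took the 3 *shId1* and 3 *shScr* libraries of the 0 h time point, 6 of the 24 libraries of the series. It covered 10790 of the 10818 genes in the table, which reached a value of 1 in 3 or more of the 12 shRNA libraries. All cells were labelled WT and primary keratinocytes. They were derived from newborn pups, grown over 3T3-J2 mouse fibroblast feeders in the low-calcium medium E-Low and infected before selection with puromycin. The labels name a single *shId1* construct, so effects of the hairpin other than on *Id1* cannot be told apart from those of *Id1* loss. The *shScr* columns carry the name H2BGFP. Each library is labelled a biological replicate, but no source used here says whether that means separate cultures or pups. For silencing, the p-values measure the spread within groups, estimated jointly over all 12 shRNA libraries, those kept 24 h in calcium included. They do not measure the spread of the 6 libraries alone. The other groups used below were *shScr* and *shId1* cells after 24 h in 1.5 mM calcium, and cells with a doxycycline-inducible ID1 construct with (+dox) or without (-dox) the drug at 0 h.

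Basal keratinocytes proliferate on the basement membrane and, as calcium rises, leave it, stop dividing and build the cornified barrier. Basic helix-loop-helix factors bind E-boxes as dimers with the E-proteins encoded by *Tcf3*, *Tcf4* and *Tcf12*. ID proteins have the dimerization domain but no DNA-binding region, and so hold E-proteins off DNA. ID1 is expressed in progenitors and is a target of BMP signalling in many tissues.

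The 6 libraries held 22606273 to 30353746 reads in the table's genes. Values are the authors' CPM, that is reads of a gene scaled to a common library total, with TMM scaling, and are not divided by gene length. On the first principal component (53.3% of the variance), the 3 *shScr* libraries (-25.8 to -9.23) lay apart from the 3 *shId1* libraries (9.97 to 26.0). The second, with 32.2%, set the replicates numbered 1 of both groups (14.6 and 25.2) apart from the other 4 libraries (-16.6 to -4.89). The share of mitochondrial genes was 2.27% to 2.45% with *shScr* and 2.86% to 3.34% with *shId1*. The part of this difference in the results was not tested. The basal markers *Krt5* (9132 to 11324 in all 6 libraries) and *Krt14* (13785 to 16881) were present throughout. Of 22 fibroblast and feeder markers, only *Fbln1* and *Acta2* could be tested, with a summed level of 51.3 to 61.8 in *shScr* and 64.4 to 69.4 in *shId1* cells. They went opposite ways, with *shScr* and *shId1* means of 46.7 and 61.3 for *Fbln1* and 8.46 and 5.55 for *Acta2*. Of 16 leukocyte markers only *Cd68* could be tested (2.88 to 3.77 and 4.87 to 5.66), and the 2 of 11 melanocyte markers in the table summed to 4.73 to 5.96 and 7.47 to 10.9. These 2 also went opposite ways, with means of 3.26 and 7.13 for *Mitf* and 2.00 and 1.57 for *Pmel*. The 1 of 11 endothelial and Schwann markers, *Kdr*, was at 4.49 to 6.96 and 3.10 to 6.45. The part of other cell types in the results was not tested. In such bulk libraries, fewer cells of a type and less RNA in each cell cannot be told apart.

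The targeted gene was lower in every *shId1* library, with clear differences between libraries in how far. With *shScr*, *Id1* was at 60.7, 103 and 111 CPM in replicates 1, 2 and 3, and with *shId1* it was at 25.7, 19.7 and 39.0. The groups did not overlap, and the lowest control was the replicate numbered 1. The fold change was -1.69 on the log2 scale (SE 0.38, limma adjusted p = 0.018). The call was lost without *shId1* replicate 2 (adjusted p = 0.096), *shScr* replicate 2 (0.086) or *shScr* replicate 3 (0.061). Its paralogs *Id2* (54.4 to 70.7 with *shId1*, 70.8 to 75.9 with *shScr*) and *Id3* (25.2 to 48.0 and 21.8 to 60.8) did not pass the test, with log2 fold changes of -0.28 and -0.09 (adjusted p = 0.23 and 0.93). Of the E-proteins, *Tcf12* lay at 96.8 to 97.6 in *shId1* and 124 to 126 in *shScr* cells. Its groups did not overlap, but the difference of -0.36 (adjusted p = 0.085) was under the fold limit, and its adjusted p was 0.039 with the replicate number as a block. The spread in these fits includes that of the 24 h libraries, where its SDs were 9.27 with *shScr* and 11.2 with *shId1*. *Tcf3* overlapped between the groups (0.06, adjusted p = 0.91), as did *Tcf4* (0.13, adjusted p = 0.72). None of 22 other basic helix-loop-helix genes was called, with a median log2 fold change of 0.13.

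Promoter windows of 4 genes that moved are shown because ID1 acts on factors that bind E-boxes. Each runs from 250 bases before to 50 bases after the RefSeq start (GRCm38.p6), 5′ to 3′ on the gene's strand. Capitals mark every CANNTG, the E-box, a pattern whose matches lie at the same places on either strand. *Il1f9*, an epithelial cytokine of the IL-36 group, had the largest rise, *Cebpa* encodes a C/EBP factor of epidermal differentiation, *Mical2* had the largest fall, and *Col4a1* fell with its neighbour *Col4a2*.
Il1f9, chr2:24186226-24186525, + strand: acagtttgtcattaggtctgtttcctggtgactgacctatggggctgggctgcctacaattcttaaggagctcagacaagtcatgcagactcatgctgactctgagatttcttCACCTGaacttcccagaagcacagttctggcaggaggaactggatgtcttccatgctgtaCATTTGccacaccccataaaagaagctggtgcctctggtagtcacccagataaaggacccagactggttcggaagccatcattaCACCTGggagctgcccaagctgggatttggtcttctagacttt
Cebpa, chr7:35119043-35119342, + strand: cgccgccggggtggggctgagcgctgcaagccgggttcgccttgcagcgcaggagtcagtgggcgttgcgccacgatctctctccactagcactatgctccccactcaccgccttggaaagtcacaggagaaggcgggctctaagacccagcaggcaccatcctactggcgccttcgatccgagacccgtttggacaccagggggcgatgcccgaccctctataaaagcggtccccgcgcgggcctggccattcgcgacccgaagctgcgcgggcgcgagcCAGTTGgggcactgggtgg
Mical2, chr7:112225586-112225885, + strand: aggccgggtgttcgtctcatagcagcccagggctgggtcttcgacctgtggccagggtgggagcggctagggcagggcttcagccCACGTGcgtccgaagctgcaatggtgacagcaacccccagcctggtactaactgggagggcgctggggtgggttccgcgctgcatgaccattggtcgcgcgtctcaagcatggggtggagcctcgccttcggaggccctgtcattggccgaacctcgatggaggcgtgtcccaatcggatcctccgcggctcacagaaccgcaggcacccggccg
Col4a1, chr8:11312777-11313076, - strand: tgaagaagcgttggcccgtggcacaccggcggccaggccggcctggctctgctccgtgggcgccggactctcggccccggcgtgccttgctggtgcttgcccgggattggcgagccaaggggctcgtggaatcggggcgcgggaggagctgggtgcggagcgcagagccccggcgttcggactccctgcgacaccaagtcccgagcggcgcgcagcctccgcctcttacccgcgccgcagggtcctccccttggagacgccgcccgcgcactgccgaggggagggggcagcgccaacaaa
The *Il1f9* window holds 3 E-boxes, those of *Cebpa* and *Mical2* 1 each, and that of *Col4a1* 0. The *Col4a2* window, on the opposite strand, shares 78 bases with it and also holds 0. Windows were found for 102 of the 151 genes called higher and 45 of the 58 called lower. CANNTG was in 74.5% of the 137 windows of the higher genes, 68.9% of the 61 windows of the lower genes, 63.0% of the 10636 windows of all genes tested and 72.3% of all 32851 windows in the table. For CAGGTG or CACCTG, which are the same site read on opposite strands and which CANNTG includes, these shares were 27.7%, 19.7%, 17.7% and 20.2%. For CAGCTG, likewise included, they were 19.7%, 21.3%, 14.6% and 16.3%. A match is a description of these letters and not a bound site.

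A gene was called when its limma adjusted p, by the Benjamini-Hochberg method over all genes tested, was under 0.05 and its change was above 2-fold. The 209 called genes were 1.94% of those tested: 151 (1.4%) were higher and 58 (0.538%) lower in *shId1* cells. At this share, 0 calls in a gene list of the sizes used here does not set that list apart from other genes. The median log2 fold change over all genes was 0.0036. With the replicate number as a block, 218 genes (2.02%) were called, 158 (1.46%) higher and 60 (0.556%) lower, and 148 and 56 of the calls above were among them. Without the fold limit, 435 genes (4.03%) were higher and 371 (3.44%) lower at an adjusted p under 0.05. Without *shId1* replicate 2 the lower genes numbered 37, and without the replicates numbered 1 the counts were 177 higher and 74 lower. Genes called higher were mostly rare in control cells: 79 of 151 had a *shScr* mean under 2 CPM, and their median was 1.90 against 33.8 for all genes. For genes called lower the median was 16.8. Among the 4169 genes with a mean of 50 or more over the 6 libraries, 17 were lower and 8 higher. Among the 633 with a mean under 2, 38 were higher and 3 lower. The rules of the test favour this contrast. A gene near 0 in *shScr* could enter through its level in the other shRNA libraries. With 0.5 added before the log, such a gene could be called higher but hardly lower. A rise of more than 4-fold was seen in 20 genes and a fall of that size in 3. The values of the groups did not overlap for 149 of the 151 and 57 of the 58, against 33.0% of all genes. The calls were made on these same values, which nearly fixes this outcome, so it is no support for them.

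**Figure D1:**
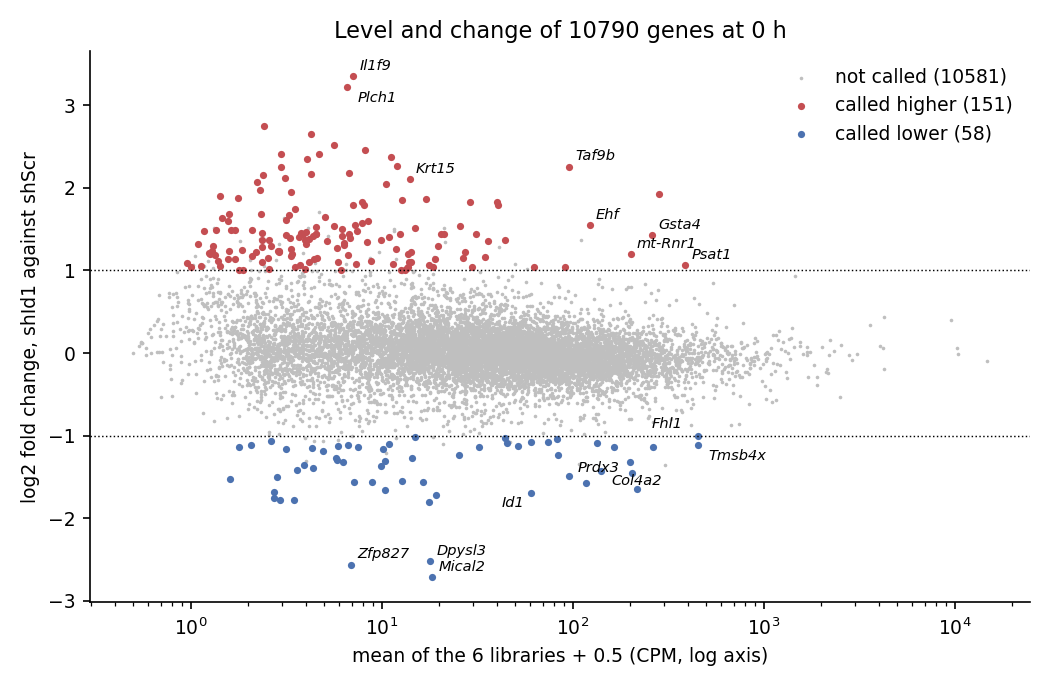
Each point is a gene, with its mean over the 6 libraries plus 0.5 (CPM, log axis) against its log2 fold change in *shId1* relative to *shScr* cells at 0 h. The 151 genes called higher (red) gather at low levels, while the 58 called lower (blue) include abundant genes such as *Tmsb4x* (619 in *shScr*) and *Fhl1* (602). At low levels the filter and the added 0.5 favour calls of higher over calls of lower. Dotted lines mark the 2-fold limit.

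Transcription factors of epidermal differentiation were among the genes that rose. Of 27 tested, 4 rose, 0 fell and 23 did not pass, with a median of 0.20. *Cebpa* was at 0.897, 1.37 and 1.32 CPM in *shScr* and 4.71, 4.58 and 2.96 in *shId1* libraries. All *shId1* values lay above all *shScr* values, at a low level (log2 fold change 1.42, SE 0.18, adjusted p = 0.00069). *Ehf*, an ETS factor of epithelia, was at 64.5, 52.9 and 67.2 and rose to 199, 209 and 141 (1.55, SE 0.15, adjusted p = 0.00019). *Dlx5*, a distal-less homeobox factor, rose from 0.976 ± 0.656 to 3.16 ± 0.892 (SD, n = 3; adjusted p = 0.012). This call was lost without *shId1* replicate 2 (adjusted p = 0.065), *shScr* replicate 1 (0.050) or *shScr* replicate 2 (0.064). *Klf4*, also required for the barrier, did not pass (-0.27, adjusted p = 0.12).

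Keratin genes of basal and of suprabasal cells were among those that rose. *Krt15*, a keratin of basal cells and hair follicle stem cells, was at 4.84, 4.18 and 5.11 CPM in *shScr* and 25.6, 25.4 and 15.9 in *shId1* libraries. Every *shId1* value was at least 3 times the highest control (log2 fold change 2.10, SE 0.29, adjusted p = 0.0011). It was the 1 called gene of 18 basal keratins and progenitor factors. *Krt5*, *Krt14* and *Trp63*, the p63 gene that maintains progenitors, had log2 fold changes of 0.06, -0.09 and -0.14 (adjusted p = 0.87, 0.89 and 0.46). Next to *Krt15* on chromosome 11 lies *Krt13*, a keratin of suprabasal cells in internal stratified epithelia. It rose from 1.53 ± 0.753 to 4.87 ± 1.6 (SD, n = 3; 1.41, adjusted p = 0.032), but lost its call without *shId1* replicate 1 (0.082) or 2 (0.13) or *shScr* replicate 2 (0.14) or 3 (0.090). *Krt78*, a suprabasal keratin, was at 22.0, 11.8 and 16.7 and rose to 85.5, 62.4 and 39.2 (1.83, adjusted p = 0.0012). *Krt10*, the main early suprabasal keratin, was at 6.29 to 7.46 and 8.69 to 21.1 and did not pass (0.88, adjusted p = 0.072). None of 8 stress and simple epithelium keratins was called, among them *Krt6a* (-0.19) and *Krt16* (-0.14).

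**Figure D2:**
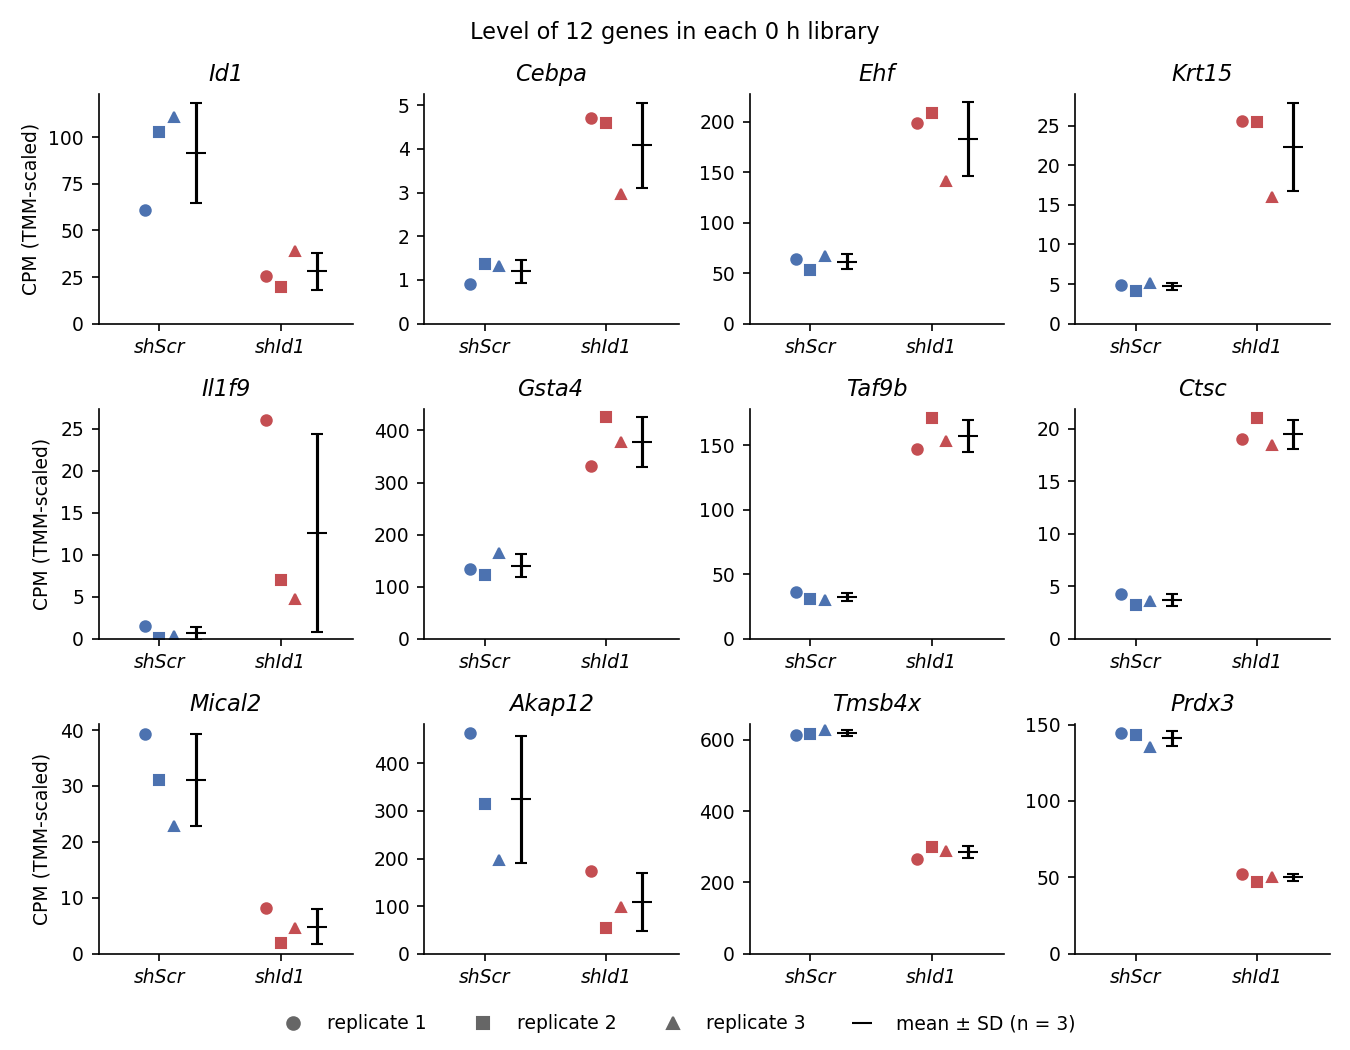
Level of 12 genes in each 0 h library (CPM, linear axes from 0), with *shScr* in blue and *shId1* in red, symbols for replicates 1, 2 and 3, and black bars for the mean and SD (n = 3). The red and blue points do not overlap for any of these genes, though *Il1f9* (4.70 to 26.1 with *shId1*) and *Akap12* (197 to 463 with *shScr*) have a wide range within a group.

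Genes of the outermost layers moved unevenly. Of 30 cornified envelope precursors 28 lay above 0 and 0 were called, with a median of 0.59 and wide spread between libraries. *Sprr1a*, a small proline-rich precursor, had means of 31.8 and 82.7 (1.02, adjusted p = 0.57), and *Ivl*, which encodes involucrin, 24.9 and 30.6 (0.29, adjusted p = 0.40). Transglutaminase and corneodesmosome genes rose in part. *Tgm3*, a transglutaminase, was at 0.323, 1.99 and 0.852 and rose to 7.95, 9.61 and 4.36. It was 1 of 2 called genes of 8, the other being *Cdsn* (1.05, adjusted p = 0.038, and 0.066 with the replicate block), whose call was also lost without any 1 of 5 libraries, all but *shId1* replicate 2 (adjusted p up to 0.12). With the block *Asprv1*, a protease that processes filaggrin, was called too (adjusted p = 0.0043).

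Among proteases and their inhibitors 4 of 18 rose. *Spink5*, the inhibitor lost in Netherton syndrome, was already at 221, 77.2 and 86.9 CPM in *shScr* and reached 467, 449 and 388 in *shId1* libraries (1.92, adjusted p = 0.0020). *Serpinb1a*, an inhibitor of neutrophil proteases, rose from 3.20 ± 0.553 to 9.40 ± 2.76 (SD, n = 3; 1.4, adjusted p = 0.0021). The transmembrane serine protease gene *Tmprss11e* rose 1.83 on the log2 scale (adjusted p = 0.0027). *Tmprss13*, another member, had 14.5 to 18.2 in *shScr* and 31.5 to 42.1 in *shId1* cells (1.15, adjusted p = 0.00039). Its neighbour *Tmprss4* passed at 0.045, with 0.050 in the blocked fit, where it is not called. The call of *Tmprss4* was lost without *shId1* replicate 1 (0.10) or 2 (0.12) or *shScr* replicate 2 (0.19) or 3 (0.095). The kallikrein genes *Klk7* and *Klk8*, whose proteases cut corneodesmosomes, did not pass (0.38 and 0.42).

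Some genes of epidermal lipid handling rose. Of 27 barrier lipid genes 7 rose and 0 fell, with a median of 0.39, and 8 were higher with the replicate block. *Dgat2*, which makes triglyceride, was at 11.9, 9.93 and 10.6 in *shScr* and 33.9, 32.4 and 24.9 in *shId1* libraries (1.44, SE 0.13, adjusted p = 0.00011). The adjacent lipase genes *Lipk* and *Lipn* rose from means of 0.353 and 0.627 to 4.56 and 4.64, with *shId1* replicate 1 highest and 3 lowest for both. *Pnpla1*, which acts in acylceramide synthesis, rose from 1.91 ± 0.198 to 6.20 ± 1.82 (SD, n = 3). The others were *Cyp4f39*, *Fa2h* and *Sdr9c7*, which act on very long or hydroxylated fatty acids (1.29, 1.47 and 1.25). *Cyp4f39* lost its call without *shId1* replicate 1 (0.95, under the fold limit), *shId1* replicate 2 (adjusted p = 0.054) or *shScr* replicate 1 (0.067), *Fa2h* without *shScr* replicate 2 (0.050), and *Sdr9c7* without *shId1* replicate 1 (0.075) or 2 (0.12) or *shScr* replicate 1 (0.090) or 2 (0.12). *Cers3* and *Abca12*, the ceramide synthase and lipid transporter of the barrier, did not pass (0.26 and 0.39). Outside the list *Pla2g4e*, a cytosolic phospholipase A2, was at 1.04, 0.664 and 0.705 and rose to 8.46, 6.57 and 4.02 (2.35, adjusted p = 0.00069). *Chdh*, which oxidises choline, rose 2.46 (adjusted p = 0.0020), *Them5*, an acyl-CoA thioesterase, 2.25 (0.0012), and *Aldh3b2*, an aldehyde dehydrogenase, 1.79 (0.00052). *Cd36*, a fatty acid transporter, was the 1 gene called of 21 for fatty acid synthesis and binding (1.37, adjusted p = 0.0037). None of 24 sterol synthesis genes was called (median -0.03).

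Glutathione S-transferase genes of the alpha class rose together. *Gsta4*, which conjugates lipid aldehydes, was at 134, 123 and 164 CPM in *shScr* and 331, 427 and 377 in *shId1* libraries (1.43, SE 0.28, adjusted p = 0.0097). *Gsta3* was at 1.61, 1.95 and 2.14 and rose to 4.65, 6.79 and 6.88 (1.45, adjusted p = 0.0021). *Gsta1* (1.23, adjusted p = 0.048) and *Gsta2* (1.47, adjusted p = 0.014) were near 0 in controls. *Gsta4*, *Gsta1* and *Gsta2* lie within 200 kb on chromosome 9, with 3 of the 4 genes tested there called, and near-identical members can share reads, so the split between *Gsta1* and *Gsta2* is uncertain. The calls of *Gsta4* (adjusted p up to 0.056) and *Gsta2* (up to 0.074) were lost without replicate 2 of either group, and that of *Gsta1* without any 1 library (up to 0.17). They were the 4 genes called of 25 in the NRF2 and glutathione list, whose median was 0.27.

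Cytokine and innate immune genes followed no single pattern. Of 14 IL-1 family and epithelial cytokine genes 3 rose and 0 fell, with a median of 0.01. *Il1f9* was at 1.47, 0.117 and 0.294 CPM in *shScr* and 26.1, 6.98 and 4.70 in *shId1* libraries, highest in replicate 1 of each group (3.36, SE 0.54, adjusted p = 0.0030). *Il1rn*, the IL-1 receptor antagonist gene beside it on chromosome 2, rose evenly from 21.9, 23.5 and 26.8 to 59.4, 68.8 and 60.4 (1.37, SE 0.13, adjusted p = 0.00012). *Il33*, an alarmin stored in nuclei, rose from 1.86 ± 0.294 to 7.23 ± 3.11 (SD, n = 3; 1.64, adjusted p = 0.0024). *Il1f8*, another IL-36 cytokine, had an adjusted p of 0.073 and was called with the block (0.042). *Cxcr2*, a receptor for neutrophil chemokines, was at 0.86 to 1.15 and rose to 5.69 to 7.47 (2.17, adjusted p = 6.5e-05), the 1 gene called of 8 in its list. The chemokines *Cxcl1* and *Cxcl5* did not pass (0.47 and 1.08, adjusted p = 0.74 and 0.10). *S100a8* rose from 0.0815 to 1.77 CPM in the mean (1.90, adjusted p = 0.0058) and *S100a9*, its partner in calprotectin, by 1.49 (0.026), a call lost without *shScr* replicate 2 (0.11) or 3 (0.066). They were the called members of 18 alarmin and antimicrobial genes (median 0.10). No interferon response gene of 7 tested was called (median 0.09).

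Prostaglandin synthesis held 3 called genes of 15, all higher. *Ptgs1*, which encodes cyclooxygenase 1, was at 5.52, 4.26 and 5.35 and rose to 15.7, 13.3 and 12.5 (1.37, SE 0.17, adjusted p = 0.00074). *Hpgds*, a prostaglandin D2 synthase, was at 8.03, 4.34 and 7.40 and rose to 37.7, 26.9 and 14.4 (1.86, adjusted p = 0.0021). *Pla2g4e*, given above, is the other. All *shId1* values of these genes exceeded all controls. The list median was 0.10.

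Junction genes moved at few members. Of 13 desmosome genes 2 rose, the adjacent cadherin genes *Dsg1a* (1.52, adjusted p = 0.0084) and *Dsg1b* (1.44, adjusted p = 0.00056), whose near-identical sequences can share reads. *Dsg1b* was at 13.7, 14.9 and 20.5 in *shScr* and 41.7, 58.2 and 36.2 in *shId1* libraries. *Gjb2*, which encodes connexin 26, was at 0.0391 to 0.470 and rose to 1.43 to 2.37 (1.6, adjusted p = 0.0055). It was 1 of 2 called of 21 tight and gap junction genes, the other being *Tjp3*, a tight junction scaffold (1.12, adjusted p = 0.040), whose call was lost without *shId1* replicate 2 (0.18) or 3 (0.11) or *shScr* replicate 1 (0.15) or 2 (0.12). The list median was -0.05.

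The most reproducible changes by adjusted p included genes outside the epidermal lists. Among the 10 genes with the lowest adjusted p, all called, was *Taf9b*, which encodes a TBP-associated factor, at 36.2, 31.1 and 30.3 CPM in *shScr* and 147, 171 and 153 in *shId1* libraries. This 2.26 on the log2 scale had the lowest adjusted p of the table (SE 0.12, 3.1e-06). *Plch1*, a phospholipase C of the eta class, was at 0.617 to 1.13 and rose to 10.3 to 12.6 (3.22, adjusted p = 4.2e-06). *Ctsc*, which encodes the lysosomal protease cathepsin C, rose from 4.23, 3.17 and 3.61 to 19.0, 21.0 and 18.4 (2.26, adjusted p = 7.6e-06). It was the 1 gene called of 29 in the lysosome list, whose median was 0.23. The cytosolic carbonic anhydrase gene *Car13* rose 2.37 (adjusted p = 4.2e-06), the phosphatase gene *Dusp22* 1.44 (1.1e-05) and the epithelial kinase gene *Ptk6* 1.75 (6.5e-05). *Prdx3*, a mitochondrial peroxiredoxin, was at 144, 143 and 135 and fell to 52.1, 47.2 and 50.3 (-1.49, SE 0.10, adjusted p = 1.2e-05). *Hmgb3*, a chromatin protein with HMG boxes, fell from 69.5 to 71.9 to a level of 31.6 to 32.4 (-1.13, SE 0.08, adjusted p = 1.8e-05). None of these genes overlapped between the groups.

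Some genes of the actin cytoskeleton fell. Of 35 actin regulators and SRF targets 3 fell, 0 rose and 32 did not pass, 31 lay below 0 and the median was -0.30. *Mical2*, whose enzyme oxidises actin and disassembles filaments, was at 39.3, 31.1 and 22.8 CPM in *shScr* and 8.16, 1.86 and 4.53 in *shId1* libraries (-2.72, SE 0.37, adjusted p = 0.0011). *Dpysl3*, a cytoskeletal adaptor known from growing neurons, was at 28.2 to 32.4 and fell to 3.41 to 5.70 (-2.52, SE 0.20, adjusted p = 3.7e-05). *Fhl1*, a LIM-domain protein, fell from 649, 615 and 543 to 272, 304 and 323 (-1.01, adjusted p = 0.00036). It lay nearest to the fold limit of all falls, and was under it without *shId1* replicate 1 (-0.94), *shScr* replicate 1 (-0.95) or *shScr* replicate 2 (-0.99). Without the fold limit 9 of the 35 were lower at an adjusted p under 0.05 and 0 higher, where 3.44% of all genes were lower. Among them were *Cald1* (-0.79, adjusted p = 0.0033), which encodes caldesmon, and *Pdlim5* (-0.66, adjusted p = 0.00056). *Tmsb4x*, chosen after its values were seen, encodes the monomer-binding thymosin beta 4. It was at 613, 616 and 628 in *shScr* and 267, 300 and 288 in *shId1* libraries (-1.12, SE 0.13, adjusted p = 0.00050).

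Genes of the basement membrane and matrix proteases were among those that fell. Of 22 basement membrane genes tested 3 fell, 2 of them also with the replicate block, and 18 lay below 0, with a median of -0.36. *Col4a1* was at 185, 174 and 163 in *shScr* and 59.8, 49.3 and 65.8 in *shId1* libraries, and *Col4a2* at 228, 202 and 179 and 78.1, 62.0 and 87.5. These encode collagen IV chains and start head to head, and their promoter windows share 78 bases. Their falls were -1.58 and -1.42 (SE 0.21 and 0.18). A link between the shared bases and these falls was not tested. *Lama3*, a laminin chain gene, did not pass (-0.69, adjusted p = 0.15). Fibronectin mRNA, from *Fn1*, stood at 755, 323 and 233 and 294, 89.2 and 128. *shId1* replicate 1 lay above *shScr* replicate 3, and its adjusted p was 0.094, or 0.016 and called with the replicate block (-1.36). *Mmp24*, a membrane metalloproteinase, fell too (-1.78, adjusted p = 0.0019). So did *Adamts15*, a proteoglycanase (-1.57, adjusted p = 0.040), but lost its call without any 1 library (adjusted p up to 0.17). They were the 2 called genes of 21 in their list. None of the 8 listed integrins that could be tested was called, with a median of -0.36. Without the fold limit 1 of them was higher and 1 lower at an adjusted p under 0.05. *Itgb7*, an integrin gene outside the list, was called higher. Its call was lost without any 1 library but *shId1* replicate 1 (limma adjusted p up to 0.17). *Itgb1* was at 440 to 633 and 233 to 386 (-0.87, adjusted p = 0.024), *Itgb4* at 233 to 281 and 146 to 207 (-0.53, adjusted p = 0.051) and *Itga6* at 372 to 500 and 321 to 472 (-0.18, adjusted p = 0.55).

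Regulators of signalling fell singly. *Cyp26b1*, which degrades retinoic acid, was at 30.7, 22.7 and 17.9 in *shScr* and 12.1, 5.85 and 6.10 in *shId1* libraries (-1.56, SE 0.25, adjusted p = 0.0028), the 1 gene called of 10 in the retinoid and vitamin D list. *Sgk1*, a kinase induced by corticosteroids, fell from 24.0, 19.9 and 15 to 11.1, 5.25 and 7.83 (-1.27, adjusted p = 0.0053). *Rbms1*, an RNA-binding protein gene, was at 336, 305 and 247 and fell to 138, 91.1 and 98.3 (-1.45, adjusted p = 0.00021). *Akap12*, a scaffold for protein kinase A, was at 463, 315 and 197 and 173, 53.7 and 98.4 (-1.65, adjusted p = 0.034, and 0.076 with the replicate block). Its call was also lost without *shId1* replicate 2 (0.15) or 3 (0.095) or *shScr* replicate 1 (0.13) or 2 (0.12). *Slit3*, a guidance ligand, fell (-1.56, adjusted p = 0.0015), and the zinc finger gene *Zfp827*, at 10.8 to 12.2 in *shScr*, fell to 1.19 to 2.22 (-2.56, adjusted p = 0.00058). Of 18 YAP target genes 2 fell, *Ccn1* (-1.31, adjusted p = 0.012, and 0.065 without *shId1* replicate 2) and *F3* (-1.04, and -0.88, under the fold limit, without *shScr* replicate 1). *Tgfb2* rose among them at a low level, from 0.502, 0.0391 and 0.206 CPM to 1.29, 0.885 and 0.886 (1.06, adjusted p = 0.039). This call rests on few reads and was lost without any 1 library but *shScr* replicate 1 (adjusted p up to 0.17). *Tgfb2* was also the 1 called of 20 BMP and TGF-beta genes. Of 21 Wnt genes, *Fzd10*, a receptor, rose (1.24, adjusted p = 0.0025).

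Genes of mitosis and DNA replication held 0 calls, where 1.94% of all genes tested were called. In lists of this size, 0 calls does not set them apart from other genes. None of 45 G2 and mitosis genes was called, and their median was -0.03. *Cdk1*, the mitotic kinase gene, was at 369 to 385 in *shScr* and 332 to 355 in *shId1* libraries (-0.11, adjusted p = 0.45). *Ccna2* (-0.08) and *Bub1* (0.08) overlapped between the groups. Of 42 DNA replication genes 0 were called, 36 lay below 0 and the median was -0.17, against 0.0036 for all genes. *Pcna* was at 246 to 262 and 242 to 266 (0.00, adjusted p = 1.00). Without the fold limit 5 of the 42 were lower at an adjusted p under 0.05, where 3.44% of all genes were. They were led by *Rrm2*, a subunit of ribonucleotide reductase (467 to 549 and 294 to 351, -0.66, adjusted p = 0.0013). Of 22 genes of G1 entry and CDK inhibitors 2 rose and 0 fell, with a median of 0.02. The D-type cyclin genes *Ccnd1* (-0.68, adjusted p = 0.041) and *Ccnd2* (-0.80, adjusted p = 0.0019) lay under the fold limit. *Cdkn2a*, the locus of the inhibitors p16INK4a and p19ARF, was at 2.91, 2.97 and 2.70 and rose to 6.21, 7.02 and 10.05 (1.27, SE 0.20, adjusted p = 0.0025), and the predicted gene *Gm12602* in the same region rose as well (1.29). *Gas1*, first known from growth arrest, rose (1.46, adjusted p = 0.019), a call lost without *shId1* replicate 2 (0.099), *shScr* replicate 1 (0.083) or *shScr* replicate 2 (0.080). *Cdkn1a*, the p21 gene, was at 126 to 172 and 141 to 173 (0.10, adjusted p = 0.75). Of 26 p53 targets 1 was called, and it fell: *Ccng1*, cyclin G1, from 446, 308 and 325 to 205, 159 and 127 (-1.14, adjusted p = 0.0021). It was under the fold limit without *shId1* replicate 3 (-0.97) or *shScr* replicate 1 (-0.98).

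All 9 listed mitochondrial-encoded genes that could be tested lay above 0, with a median of 0.40. Of the 11 genes tested on the mitochondrial chromosome 2 were called, both higher. They were *mt-Rnr1*, the small ribosomal RNA, and *mt-Tp*, which is outside the list. Without *shScr* replicate 2 the change of *mt-Tp* was 0.98, under the fold limit. *mt-Rnr1* was at 119, 116 and 129 in *shScr* and 246, 307 and 286 in *shId1* libraries (1.2, adjusted p = 0.00074). *mt-Rnr2*, the large one, had a change of 0.73 (adjusted p = 0.014), and *mt-Co1* 0.40 (adjusted p = 0.21). Of 73 nuclear genes of the respiratory chain 70 lay above 0 and 0 were called (median 0.19), against a median of 0.0036 for all genes. Against that direction stood *Atp5f1*, an ATP synthase subunit, at 175 and 96.5 in the mean (-0.86, adjusted p = 0.0031). The chaperone list had 0 calls of 29 and a median of 0.06, with members on either side. *Hspa5*, the chaperone of the endoplasmic reticulum, was at 335 to 389 and 505 to 591 (0.59, adjusted p = 0.0073). *Hsph1*, a cytosolic chaperone, was at 154 to 189 and 80.05 to 112 (-0.81, adjusted p = 0.0030). Of 34 ATF4 targets *Psat1*, of serine synthesis, was called, from 241, 245 and 259 to 410, 645 and 530 (1.06, adjusted p = 0.00069). Without *shId1* replicate 2 its change was 0.91, under the fold limit. The 76 ribosomal protein genes had a median of 0.06 and 0 calls.

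**Figure D3:**
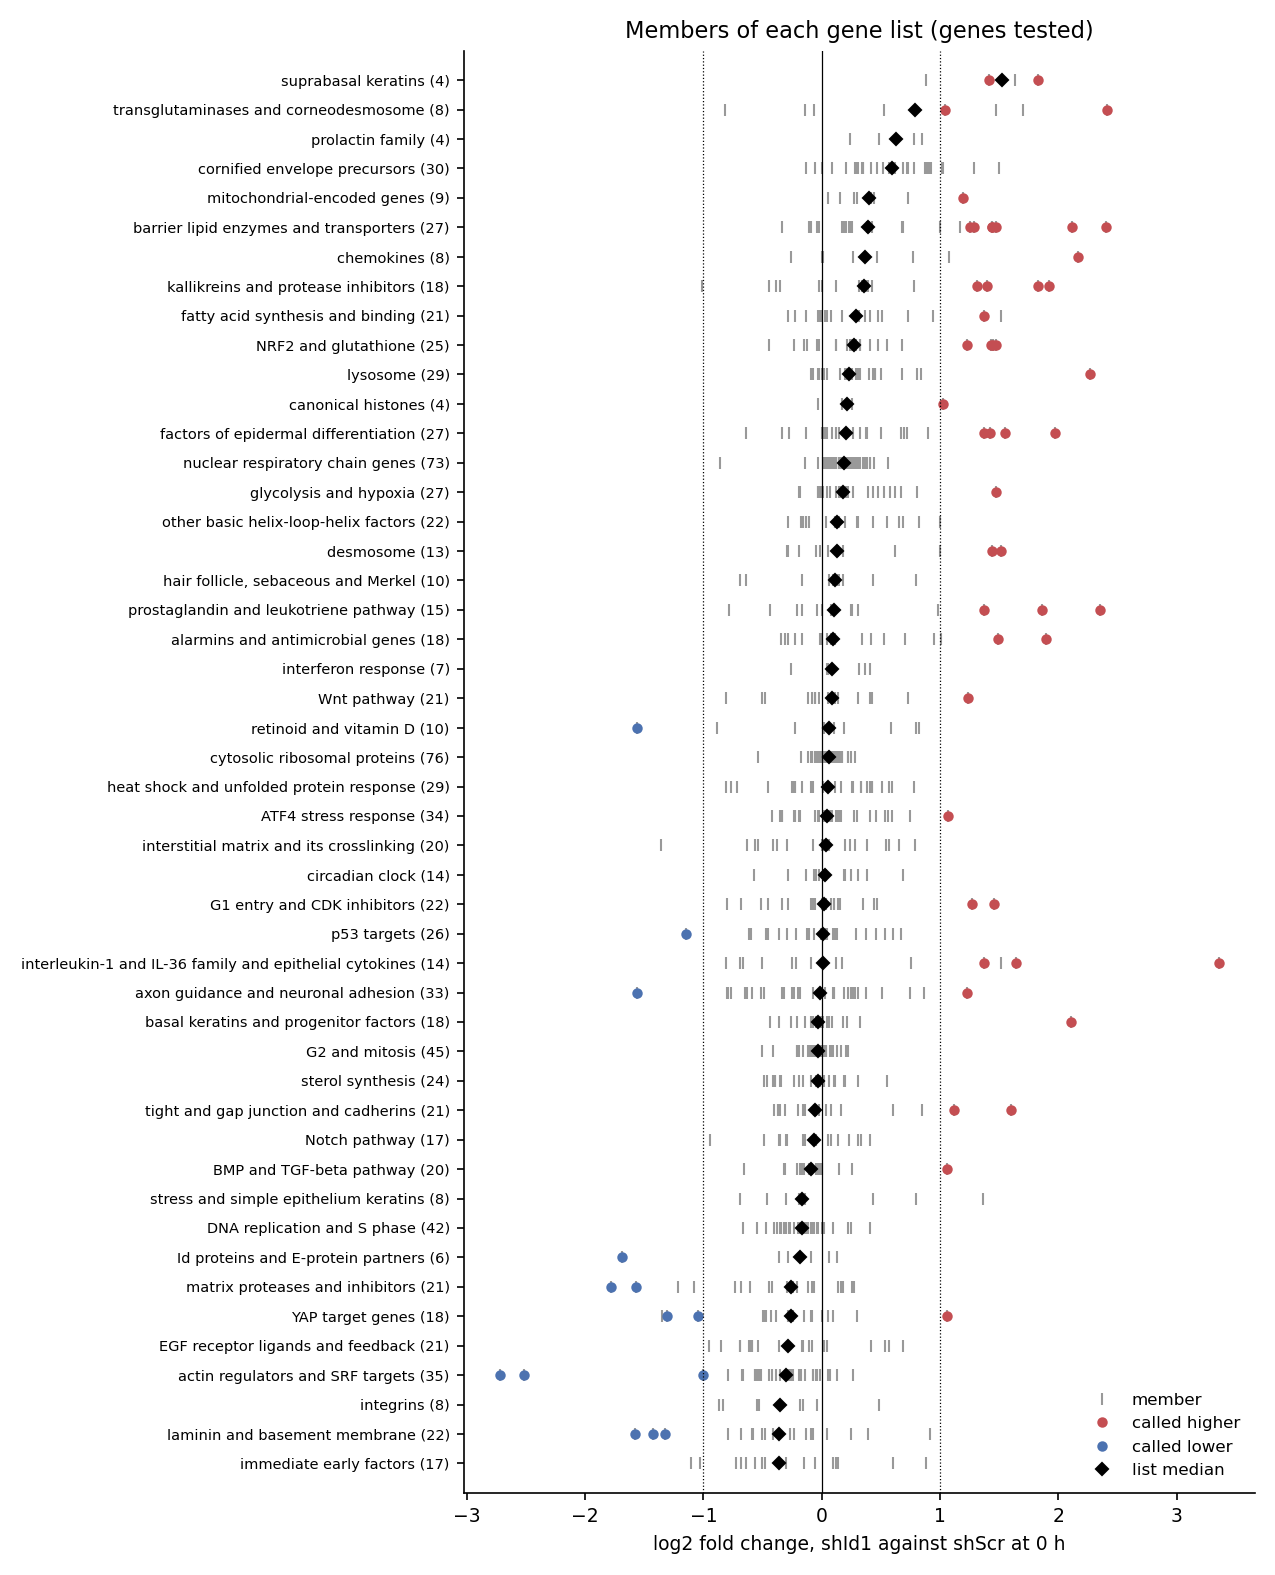
Log2 fold change of *shId1* against *shScr* at 0 h for each tested member of the gene lists with 4 or more genes tested (number in brackets), ordered by the list median (black diamond), with called members in red (higher) and blue (lower). Medians run from -0.36 for immediate early factors to 1.52 for suprabasal keratins, and dotted lines mark the 2-fold limit.

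Other lists held 0 calls: 17 immediate early factors (median -0.36), 21 EGF receptor ligands and feedback genes (-0.28), 17 Notch genes (-0.06), 14 clock genes (0.03) and 20 interstitial matrix genes (0.03). Among the first, *Fosl1*, an AP-1 subunit, had means of 27.4 and 13.5 (-1.11, adjusted p = 0.37), a wide spread. The receptor genes *Erbb2* and *Erbb3*, chosen after their values were seen, lay under the fold limit (0.53 and 0.57, adjusted p = 0.041 and 0.049). *Hes1*, a Notch target, did not pass (-0.16, adjusted p = 0.44). Of 33 axon guidance genes, *Ephb6*, an ephrin receptor, rose (1.23, adjusted p = 0.00092) and *Slit3* fell. Of 27 glycolysis and hypoxia genes *Car12* was called (1.47, adjusted p = 0.040), but not with the block, and lost its call without any 1 library (adjusted p up to 0.13). Of 4 histone genes *Hist1h2bc* was called, a call lost without any 1 library but *shScr* replicate 1 (adjusted p up to 0.16). The 10 hair follicle, sebaceous and Merkel cell genes (median 0.12) and the 4 prolactin family genes (0.63) held 0 calls. Close inside the limit of calls lay *Gpr39* (1.01) and *Ypel3* (1.01) and, for falls, *Fhl1* (-1.01), *Dok1* (-1.01) and *Cpm* (-1.03). The calls of *Gpr39* and *Ypel3* were each lost without any of 4 single libraries, and those of *Dok1* and *Cpm* without any of 2. Just outside it were *Acpp* (0.997), *Dsc1* (0.996) and *Mitf* (0.996) and, for lower values, *Mex3c* (-0.98) and *Nebl* (-0.98).

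The 24 h libraries share no sample with those at 0 h, though no source used here says whether they share cultures. Both effects were taken from the same fit, with a shared variance for each gene. A gene of low spread is thus favoured for a call at both times, and the lists are not independent. Of the 151 genes called higher at 0 h, 48 (31.8%) were also called higher with *shId1* at 24 h, where 2.21% of all genes were. They are 20.2% of the 238 called there. Of the 58 called lower, 12 (20.7%) were also called lower, where 1.14% of all genes were. They are 9.76% of the 123. The other direction at 24 h was called for 4 and 2 of them. The effect at 24 h exceeded that at 0 h for 193 genes (1.79%) and was below it for 191 (1.77%), by a test of the difference. For the 10 genes with the lowest adjusted p, 7 were called the same way at 24 h. *Taf9b* was at 39.4 ± 5.86 with *shScr* and 221 ± 20.1 with *shId1* at 24 h (SD, n = 3), and *Prdx3* at 98.9 ± 10.1 and 28.4 ± 3.34. The 24 h log2 fold changes were 2.48 and -1.78. *Ctsc* was at 7.96 and 37.6 at 24 h. At 24 h *Dgat2* was at 101 and 100 (-0.01, adjusted p = 0.97), and *Krt15*, at 212 and 389, had wide spread (0.79, adjusted p = 0.088). *Cebpa*, at 22.8 in *shScr* and 12.3 in *shId1* cells, lay under the fold limit there (-0.86, adjusted p = 0.0075). *Dpysl3* was at 3.00 and 1.99 at 24 h, and *Mical2* at 8.19 and 6.72. The 0 h *shId1* level of *Car13* (18.3) lay between the *shScr* levels at 0 h (3.10) and at 24 h (26.9), and that of *Gsta4* (378) between 140 and 880. The calcium response and the silencing effect share the *shScr* 0 h libraries, so these levels are given side by side and not compared as changes.

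**Figure D4:**
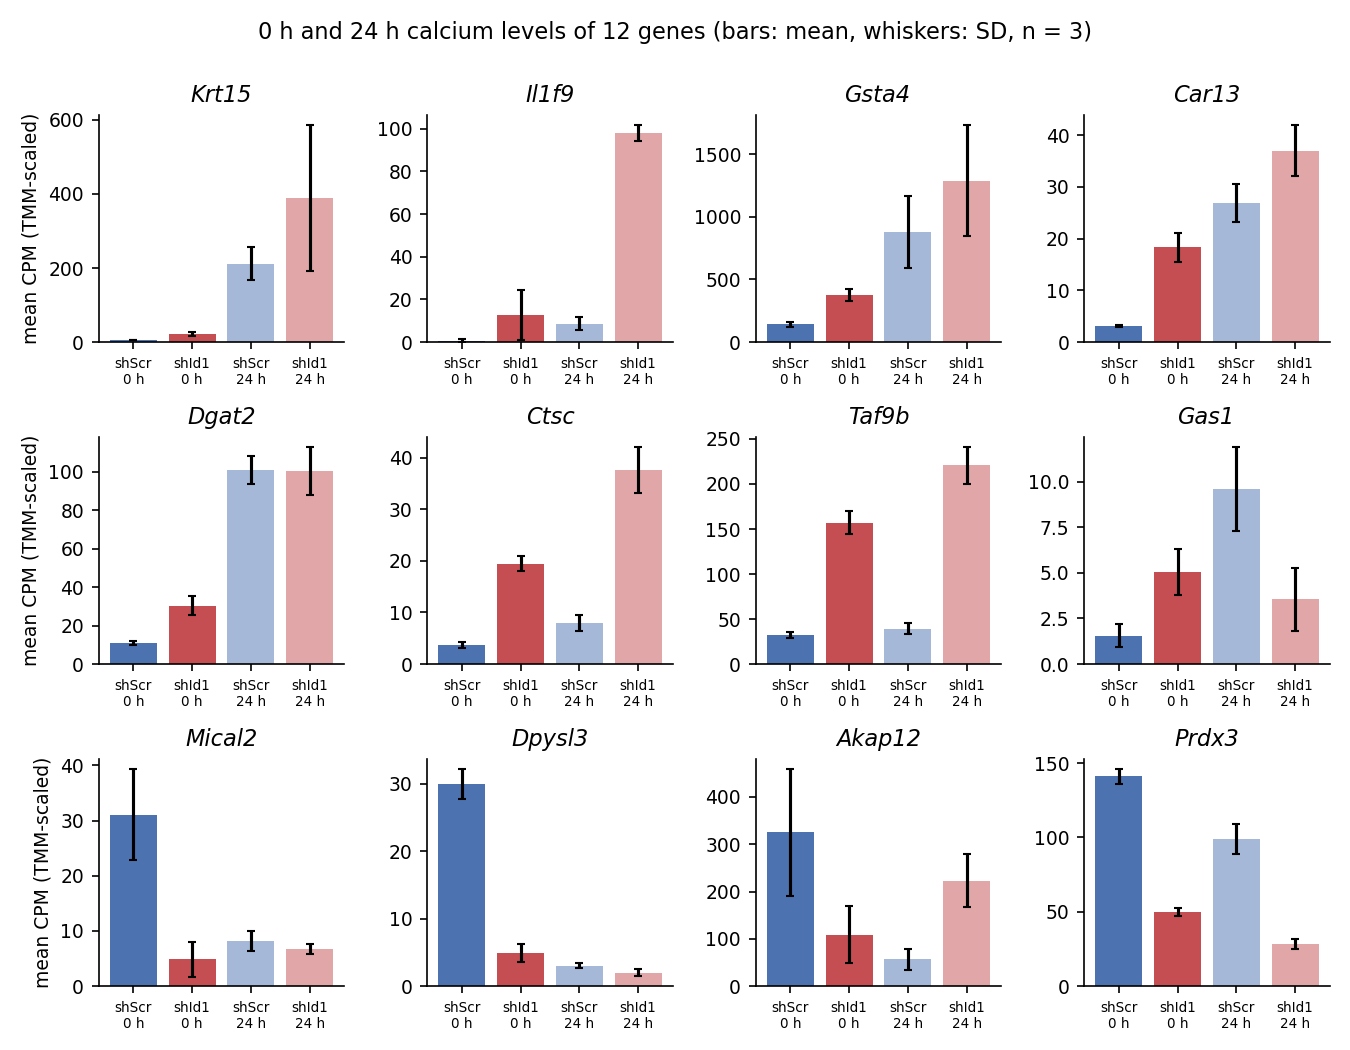
Mean level (bars, CPM from 0) and SD (whiskers, n = 3) of 12 genes in *shScr* (blue) and *shId1* (red) cells at 0 h (dark) and after 24 h in calcium (pale). *Taf9b*, *Ctsc* and *Prdx3* differ between hairpins at both times, *Dgat2* is at 10.8 and 30.4 at 0 h and at 101 and 100 at 24 h, and *Akap12* is lower with *shId1* at 0 h (325 and 108) and higher at 24 h (56.4 and 223).

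The opposite manipulation, ID1 induced by doxycycline and compared with uninduced cells at 0 h, used other libraries. Of the 58 genes called lower with *shId1*, 29 (50%) were called higher with +dox, where 4.26% of all genes were, and 0 were called lower. The 29, *Id1* itself among them, are 6.30% of the 460 genes called higher with +dox. The median log2 fold change with +dox was 1.00 over all 58. Of the 151 called higher with *shId1*, 23 (15.2%) were called lower with +dox, where 1.01% of all genes were, and 21 (13.9%) were called higher, against 4.26%. The median of the 139 that could be tested was -0.18. Doxycycline itself was not given to shRNA cells, so its effect cannot be told apart from that of ID1. *Id1* was at 10.3 ± 3.04 without and 73.7 ± 32.5 with doxycycline (SD, n = 3; 2.72, adjusted p = 2.5e-06). The uninduced mean thus lay below that of *shId1* cells at 0 h (28.1), and the induced mean below that of *shScr* cells (91.5). No test compared these levels between the experiments.

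The 10 called genes opposed most by doxycycline were, in order, *Parm1*, *Podxl*, *Lemd1*, *Gas1*, *Sox6*, *Grb14*, *Id1*, *Hcar2*, *Tgm3* and *Dennd2a*. *Parm1*, a mucin-like protein gene, had means of 0.401 and 10.1 without and with doxycycline (3.61). Its fall with *shId1* (-1.53, adjusted p = 0.021) lost its call without any of 4 single libraries (adjusted p up to 0.094). *Lemd1* and *Dennd2a* rose with doxycycline by 3.11 and 2.34, and *Hcar2*, a receptor for hydroxycarboxylic acids, fell (-2.50). The silencing call of *Lemd1* was lost without any 1 library (adjusted p up to 0.19) and that of *Hcar2* without any of 3 (up to 0.091). *Podxl*, a sialomucin of apical membranes, fell with *shId1* from 15.2, 14.7 and 11.6 to 5.25, 3.98 and 6.06 (-1.36, adjusted p = 0.010) and was at 2.94 and 38.8 without and with doxycycline (3.52, adjusted p = 5.5e-10). Its silencing call was lost without *shId1* replicate 2 (0.060) or *shScr* replicate 2 (0.055). *Grb14*, an adaptor that inhibits the insulin receptor, fell from 7.17 to 11.3 to a level of 2.91 to 3.25 (-1.32) and rose 2.73 with doxycycline. *Col4a1* and *Col4a2*, *Sgk1*, *Cyp26b1*, *Mical2*, *Dpysl3* and *Zfp827* also rose with doxycycline, by 1.5, 1.59, 2.01, 1.85, 1.29, 1.69 and 1.36. In the other direction *Gas1* (-2.89), *Sox6*, an SRY-box factor (-2.83), *Tgm3* (-2.38), *Krt15* (-2.09) and *Cebpa* (-1.02) fell with doxycycline. *Spink5* rose with *shId1* and with doxycycline (1.92 and 1.14), as did *Ctsc* (2.26 and 1.49) and *Cdsn* (1.05 and 3.14). *Prdx3* (-0.21, adjusted p = 0.16), *Dusp22* (0.10, adjusted p = 0.52) and *Il1rn* (-0.19, adjusted p = 0.10) did not pass there. Of the 10 genes with the lowest adjusted p, 1 was called in the opposite direction with +dox, *Dpysl3*.

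**Figure D5:**
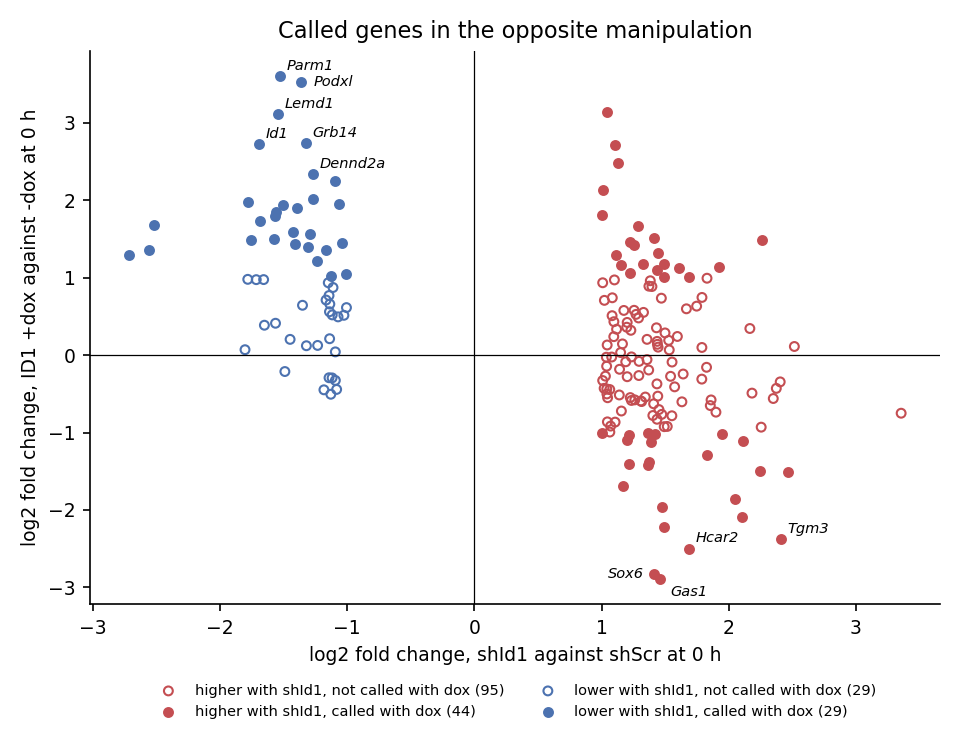
For each gene called at 0 h and tested in both experiments, the log2 fold change with *shId1* against that with +dox, both at 0 h, with filled points called in the doxycycline comparison. Of the 58 lower genes (blue) 29 are filled and all of these lie above 0, while the 44 filled higher genes (red) lie on either side, 23 below and 21 above.

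Some called genes were neighbours. Within 200 kb of each other lay, besides those named above, the alarmin pair *S100a8* and *S100a9* on chromosome 3, and *Uap1l1* and *Entpd2*, an ectonucleotidase gene, on chromosome 2. In all, 19 such groups held genes called higher and 2 held genes called lower. The 19 include *mt-Rnr1* and *mt-Tp*, and all genes tested on the mitochondrial chromosome lie within 200 kb. No such count was made for other sets of genes, so these counts do not show clustering. *Taf9b* rose with the neighbouring predicted gene *Gm6325* on chromosome X (2.15, adjusted p = 0.00075). Where genes overlap or are near copies, the counting, of which no tool is named in the sources used here, could divide their reads.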

How the data were processed

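Primary mouse keratinocytes with *shScr* or *shId1* hairpins, and cells with inducible ID1, were profiled by stranded poly(A) mRNA sequencing. The deposited signal values are, by the study's methods and the file, CPM on TMM-scaled library sizes that the authors computed with edgeR. The file's title calls them FPKM, but they were not divided by gene length. Reads were demultiplexed with bcl2fastq (2.19.1.403) and CASAVA, and the build was GRCm38, per the submitters' processing notes. The aligner and counter are not given in the sources used here. Positions came from GENCODE M21 for 10814 of 10818 gene IDs and promoters from RefSeq.

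Here log2(value + 0.5) was fitted with limma (3.58.1; R 4.3.3) over the 12 shRNA libraries as 4 groups, with trend and robust variance. Genes that reached 1 in 3 or more libraries were kept, and p-values were adjusted by Benjamini-Hochberg over all of them. A call needed an adjusted p under 0.05 and a change above 2-fold. Fold changes on this scale understate those of low genes. The 24 h effect and its difference from the 0 h effect came from the same fit, and ID1 induction from its own. All adjusted p-values are limma's unless edgeR is named. Counts of reads were recovered from the steps between low values in 18 of the 24 libraries (within 0.05 of a whole number), and edgeR's quasi-likelihood test (4.0.16) was run on 8 of the 12 shRNA libraries, 5 of them at 0 h, as an alternative. The code was tested on simulated data.

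The labels number replicates 1 to 3 in each group. Same-numbered *shScr* and *shId1* libraries deviated together from their group means (r = 0.71, 0.18 and 0.36 at 0 h). Libraries numbered 2 and 3 correlated more across numbers (0.54 and 0.43) than within them, so at 0 h the numbers set apart replicate 1 and do not separate 2 from 3. Since every same-numbered pair was above 0.1, a fit with the replicate number as a block was set beside the main one. That the numbers mark a shared culture or day is not stated.

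Members and gene lists were chosen with earlier results of these data known. Named genes were the *Id* and E-protein genes with a fixed set of basal genes, the 30 largest changes each way among called genes whose higher group averaged 2 or more, called members of each list (or up to its first 4), called genes within 200 kb of each other, the 10 lowest adjusted p, the 10 most opposed by ID1 induction or most changed by 24 h, and those nearest the fold limit. Uncalled examples from the lists outside this rule (such as *Krt10*, *Klf4*, *Cers3*, *Rrm2*, *Hsph1* and *Atp5f1*) and *Tmsb4x* were chosen after their values were seen. Alternatives were the pseudocount, the filter, other scalings, array weights, the groups fitted, the block, edgeR, no fold limit and each library left out. Values of a few genes counted in the lists are not reported here.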

Additional observations from a re-analysis of the deposited data

Results flagged for a closer look

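For 10 genes called at 0 h, the effect of *shId1* at 24 h differed from that at 0 h by the interaction term of the limma fit. These are the largest such differences among the genes called at 0 h. The genes were thus chosen for a large 0 h effect, which the difference also contains. This choice favours differences opposed to the 0 h effect, so their size is not independent of it. Both effects share no library, but the groups of 3 are too small for a test of single outlying samples. The following values are log2 differences, the 24 h effect minus the 0 h effect. *Akap12* had the largest, 3.66 (adjusted p = 0.0062), with -1.65 at 0 h and 2.01 at 24 h. *Ctnnal1*, an alpha-catenin relative, had 2.89 (adjusted p = 0.0069), from -1.80 to 1.09. *Mical2* had 2.46 (adjusted p = 0.017), from -2.72 to -0.25. The calprotectin genes had a larger effect at 24 h: *S100a9* differed by 2.73 (adjusted p = 0.0092), from 1.49 to 4.23, and *S100a8* by 2.52 (adjusted p = 0.011), from 1.90 to 4.42. The other 5 had an effect above 0 at 0 h and below 0 at 24 h. *Drc1*, a ciliary gene, differed by -3.63 (adjusted p = 0.0024), from 1.49 to -2.14, and *Them5* by -3.42 (adjusted p = 0.0024), from 2.25 to -1.17. *Chdh* differed by -2.85 (adjusted p = 0.0094), from 2.46 to -0.39, *Gas1* by -2.84 (adjusted p = 0.0063), from 1.46 to -1.39, and *Dapl1* by -2.82 (adjusted p = 0.0050), from 1.21 to -1.61. The 0 h call of *Dapl1* was lost without *shId1* replicate 2 (adjusted p = 0.16) or *shScr* replicate 1 (0.11), 2 (0.13) or 3 (0.059). That of *Drc1* was lost without *shScr* replicate 1 (0.059) or 2 (0.060).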

How the results depend on the processing

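The count of 209 genes called at 0 h (151 higher, 58 lower) was 323 with edgeR on recovered reads, which lacked *shId1* replicate 1, with 106 lower, and 806 without the fold limit (435 higher, 371 lower). Leaving out 1 library at a time gave 140 to 243 calls, 101 to 161 higher and 37 to 82 lower. In the other settings the counts stayed within 1.5 times, from 104 higher with quantile scaling to 191 with array weights, and the replicate block gave 158 and 60. The counts for the difference between times (193 and 191) and for ID1 induction (460 and 109) stayed within 1.5 times. A fit of the compared groups alone is not possible for the former and was not run. Of 125 called genes named by rule, 50 lost their call in at least 1 of 19 alternatives, 36 of them in one that kept all libraries, and 0 reversed. Of 94 other genes, 14 passed in at least 1. Of 52 list medians, 24 moved by more than the spread between libraries in at least 1. The block changed the call of *Car12*, *Tmprss4*, *Cdsn* and *Akap12*, among others, and gave calls to *Fn1*, *Asprv1*, *Il1f8* and *Acer1* among others. Genes near 0 in *shScr*, such as *S100a8*, rest on few reads, so the size of their change depends on the pseudocount.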
